A study of Mus musculus with 24 samples.

Results

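Heat shock chaperones were followed in mouse whole blood 24 h after X rays, with and without Parp1. The set held 10 genes, taken by gene symbol from the array annotation: Hsph1, Hspa8, Hspa4, Hspa1b, Hsp90ab1, Hsp90aa1, Dnaja1, Dnajb1, Hspd1 and Hspe1. A probe named for the gene was present for 9 of the 10, against 24325 gene symbols on the array, and all 9 were among the 13054 genes bright enough to test. Hspa1b had no probe of its own name. Each gene was read from the brightest of its probes, and those 9 probes were well above background on all 24 arrays.

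The study measured RNA from male 129S/J mice, 1 mouse per array, on single-colour microarrays. Blood had been drawn by cardiac puncture into an RNA stabilising solution, and globin transcripts had been reduced before labelling. There were 5 groups: wild-type mice that were sham-irradiated (n = 5), given 6 Gy (n = 5) or given 8.8 Gy (n = 4), and Parp1-/- mice that were sham-irradiated (n = 5) or given 6 Gy (n = 5). The design text names 8.8 Gy as the LD50/30, a measure of lethal dose, of wild-type mice, and 6 Gy as that of Parp1-/- mice. All mice, sham-irradiated ones included, were bled at 24 h, and their ages and the construction of the Parp1 allele are not given in the sources used here.

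Chaperones bind unfolded or partly folded proteins and keep them from aggregating. HSP70 proteins (Hspa8, Hspa1b) bind short exposed stretches of a client, HSP40 proteins (Dnaja1, Dnajb1) deliver clients and stimulate the HSP70 ATPase, and HSP110 proteins (Hsph1, Hspa4) exchange the nucleotide that releases them. HSP90 (Hsp90aa1, Hsp90ab1) takes over late-stage clients such as kinases and steroid receptors, while HSP60 and HSP10 (Hspd1, Hspe1) form the folding chamber of mitochondria. The stress-inducible genes of this system are switched on by the transcription factor HSF1, which binds heat shock elements, inverted repeats of the unit GAA or its complement TTC.

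Of the 10 symbols, 7 matched the RefSeq table of promoters (assembly GRCm38.p6), which covers 250 bases before each start. The search used the 8-letter forms GAANNTTC and TTCNNGAA, each of which reads the same on both strands, and the 3-unit forms, in which 2 free letters and a further unit in alternating order follow either of them, searched on both strands with overlaps allowed. An 8-letter form lay in a window of 5 of the 7 genes, compared with 14.5% of the 27025 genes in the table, and a 3-unit form in that of Hspd1 and Hspe1, compared with 0.514%. Hspd1 and Hspe1 are counted as separate genes there, although their matches lie in the same stretch. Counted by window, an 8-letter form lay in 6 of 12, compared with 12.8% of all 32851 windows. A match is a description of the letters and not a binding site. The stretches with a match are shown 5′ to 3′ on the gene's strand, with the matched letters in capitals, because they are what these promoters share with the textbook element.

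Hspe1: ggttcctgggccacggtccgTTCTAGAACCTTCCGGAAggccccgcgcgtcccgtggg

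Hspd1: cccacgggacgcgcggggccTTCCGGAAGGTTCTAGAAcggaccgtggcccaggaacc

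Dnaja1: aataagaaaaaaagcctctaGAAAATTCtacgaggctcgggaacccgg

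Hsph1: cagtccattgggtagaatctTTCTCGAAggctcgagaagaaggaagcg

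Hspa1b: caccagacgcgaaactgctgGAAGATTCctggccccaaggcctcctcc

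Hspd1 and Hspe1 lie head to head, and their entries are the same stretch, chr1:55088039-55088096, read from the minus strand for Hspd1 and from the plus strand for Hspe1. It holds 3 overlapping 8-letter matches, the first of them 89 bases before the Hspe1 start and 144 bases before an Hspd1 start. The Dnaja1 stretch is chr4:40722324-40722371 on the plus strand, with its match 124 bases before a Dnaja1 start. Other windows of Hspd1 and Dnaja1 held no match. On the minus strand lie those of Hsph1, chr5:149636342-149636389, and of Hspa1b, chr17:34959315-34959362. In the windows of Dnajb1 and Hspa4 these letters were not found.

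Levels are given as log2 of the processed probe intensity minus the 75th percentile of the same array, so 0 stands for the 75th percentile, and differences are on the same log2 scale. Levels of different probes were not set against each other. Between 36.5% and 57.5% of probes were well above background per array, with the lowest shares in sham-irradiated Parp1-/- mice (36.5% to 41.4%). Groups were not spread evenly over the 10 slides and 4 scan days: all wild-type sham arrays were scanned on day 4 and all irradiated wild-type arrays on day 3, on other slides. Parp1-/- sham arrays were scanned on days 1 and 2, on slides that held no wild-type array. Parp1-/- 6 Gy arrays were scanned on days 1, 3 and 4. The array labelled Parp1-/- 6 Gy replicate 1 and that labelled wild-type 8.8 Gy replicate 2 were nearly equal, with an SD of their log2 difference of 0.167 over 10817 probes, while no other pair came below 0.262 and the median pair had 0.901. Over the 9 chaperones they differed by a median of 0.02 and by at most 0.19 (Hsp90aa1).

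The probe for Parp1, the targeted gene, was read in every array as a check of the labels, although the sources used here do not say whether it lies in the deleted part of the gene. Its level was -0.94 to -0.35 in wild-type sham mice, -2.33 to -1.27 at 6 Gy and -3.95 to -1.25 at 8.8 Gy, and it was well above background on 5 of 5, 3 of 5 and 3 of 4 of these arrays. It was not well above background on any of the 5 Parp1-/- sham arrays (-3.82 to -2.29). Among the Parp1-/- 6 Gy arrays it was well above background on replicate 1 alone, at -1.67, a level within the range of irradiated wild-type mice, compared with -5.01 to -3.45 on the other 4. On wild-type 8.8 Gy replicate 4 it read -3.95, in a patch of the slide where neighbouring spots ran 2.08 below their usual level (a local median of -2.08), whereas the spots of the 9 probes that stand for the chaperones had local medians between -0.53 and 0.52 over the arrays. Another Hspa8 probe, not used for the gene's level, had a local median of -1.31 on that array. Results are therefore also given without the nearly equal arrays, of which Parp1-/- 6 Gy replicate 1 is a member.

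X rays were followed by lower levels of most of these chaperones in wild-type and in Parp1-/- blood. In wild-type mice at 6 Gy, 8 of the 9 were lower by limma at an adjusted p under 0.05 and 0 were higher, where 10.9% of all 13054 genes were lower and 15.5% higher. At 8.8 Gy 7 of 9 were lower and 0 higher, where 9.02% of all genes were lower and 7.03% higher. In Parp1-/- mice at 6 Gy 7 of 9 were lower and 0 higher, where 10.5% and 12.3% of all genes were. The median difference of the 9 was -1.06 in wild-type mice at 6 Gy, -1.14 at 8.8 Gy and -1.24 in Parp1-/- mice, while the median over all genes tested was 0.04, 0.03 and -0.07. The 2 wild-type comparisons share the same 5 sham arrays. Without the nearly equal arrays 7, 5 and 5 of 9 passed, all lower. With slide or with scan day as a fixed term 0, 0 and 0 of 9 passed, and sham and irradiated wild-type arrays share no slide or scan day. Without a test, every irradiated array lay below every sham array for 6 of 9 chaperones at 6 Gy in wild-type mice (9.61% of all genes), for 9 of 9 at 8.8 Gy (11.4%) and for 5 of 9 in Parp1-/- mice (6.04%).

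**Figure D1:**
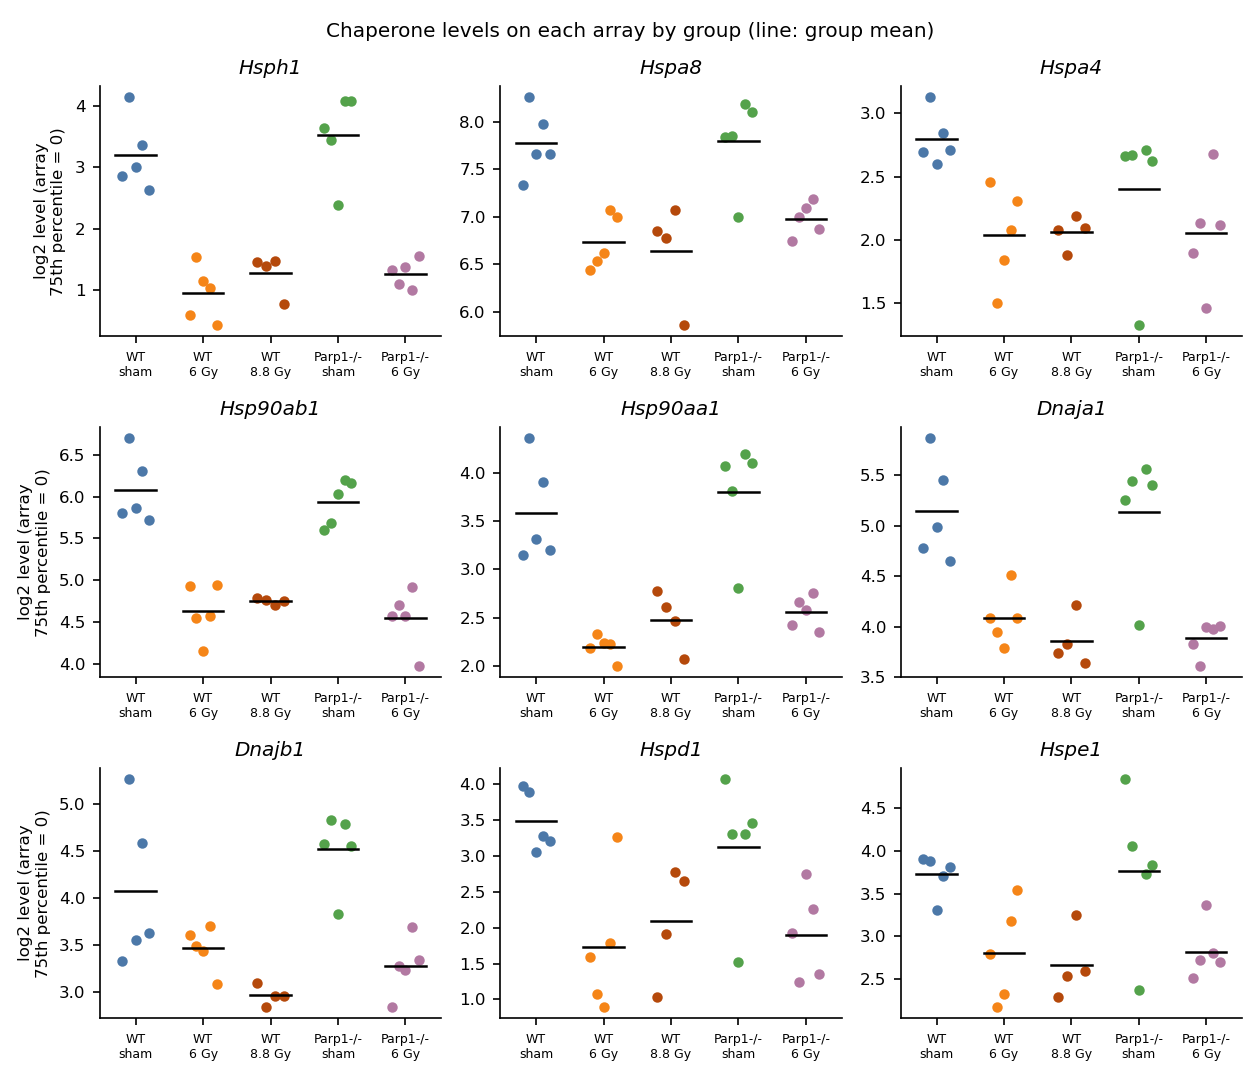
Level of each of the 9 chaperones on every array, as log2 intensity relative to the array's 75th percentile (vertical axis), by group (horizontal axis). Each point is 1 mouse and the line is the group mean. Irradiated groups sit below the sham group of their genotype, for Hsph1 by -2.25, -1.92 and -2.25, and the low sham point in 8 of the 9 panels for Parp1-/- mice is replicate 3.

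Hsph1, an HSP110 protein that acts as a nucleotide exchange factor of HSP70 (probe at chr5:150419744-150419803, minus strand, in build mm9 as for all probes here), had the largest differences of the 9. Its level was 2.86, 4.13, 3.01, 3.36 and 2.62 in the wild-type sham mice and 0.60, 1.53, 1.15, 1.03 and 0.44 at 6 Gy. At 8.8 Gy it was 1.47, 1.40, 1.48 and 0.78. The Parp1-/- sham mice had 3.64, 3.45, 2.38, 4.07 and 4.07, and the Parp1-/- mice at 6 Gy 1.32, 1.10, 1.38, 1.0 and 1.56. No irradiated array of any group reached the lowest sham array of its genotype. In wild-type mice the level fell by 2.25 ± 0.310 (SE) at 6 Gy, which is 4.75-fold lower, with a limma adjusted p of 6.51e-05. The fall was 1.92 ± 0.329 at 8.8 Gy (a log2 difference of -1.92, limma adjusted p = 0.000622), and the difference in Parp1-/- mice was -2.25 ± 0.310 (limma adjusted p = 3.87e-05). A fainter Hsph1 probe gave -2.0, -1.64 and -1.90 in the same comparisons (limma adjusted p = 0.000401, 0.0033 and 0.000393).

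Hspa8, the constitutive HSP70 of the cytosol (probe at chr9:40613223-40613282), fell in the 3 comparisons. In wild-type sham mice it stood at 7.34, 8.26, 7.66, 7.97 and 7.66, and at 6 Gy at 6.44, 6.53, 6.61, 7.06 and 6.99, with no overlap. The 8.8 Gy arrays read 6.84, 6.77, 7.07 and 5.86. In Parp1-/- mice the sham arrays read 7.84, 7.85, 6.99, 8.19 and 8.11 and the 6 Gy arrays 6.74, 7.0, 7.09, 7.19 and 6.87, so that sham replicate 3 overlapped the irradiated arrays. The differences were -1.05 ± 0.25 at 6 Gy and -1.14 ± 0.265 at 8.8 Gy in wild-type mice (limma adjusted p = 0.00547 and 0.00592) and -0.82 ± 0.25 in Parp1-/- mice (limma adjusted p = 0.0205). The Parp1-/- call was lost without sham replicate 4 (limma adjusted p = 0.062), without sham replicate 5 (0.0569) and without the nearly equal arrays (0.0591). It was also lost with median centring (0.0888), with no filter on dim probes (0.0508), with the mean over probes (0.0739), with the authors' deposited log2 table (0.0808) and with normexp and quantile normalization, where the difference was -0.51 (0.339). Of the other Hspa8 probes, 1, which lies in the dim patch of wild-type 8.8 Gy replicate 4, gave -0.85, -1.24 and -0.73 (limma adjusted p = 0.0406, 0.00985 and 0.0817). The other gave -1.54, -0.71 and -0.37 (0.00457, 0.201 and 0.462), so neither passed in Parp1-/- mice.

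Hspa4, an HSP110 protein related to Hsph1 (probe at chr11:53075085-53075144), passed in wild-type mice at 6 Gy and not in the other comparisons, and its responses in the 2 genotypes differed by 0.42 with a 95% interval of -0.35 to 1.18. The wild-type sham levels were 2.70, 3.13, 2.60, 2.85 and 2.71, and those at 6 Gy were 2.46, 1.5, 1.84, 2.08 and 2.30, all below the sham arrays. The difference was -0.76 ± 0.261 (limma adjusted p = 0.0358), and leaving out any of 6 arrays, 4 of them wild-type sham, raised that p to between 0.0521 and 0.108. The call was also lost with normexp and quantile normalization (-0.51, limma adjusted p = 0.0523) and with slide as a random term (0.0689). At 8.8 Gy the levels were 1.88 to 2.19 and the difference -0.74 ± 0.277, with an adjusted p by limma of 0.0717. In Parp1-/- mice the difference was -0.34, with a 95% interval of -0.88 to 0.20 and a limma adjusted p of 0.361. There sham replicate 3 stood at 1.33 and the other 4 sham arrays between 2.62 and 2.71, and without replicate 3 the difference was -0.61 (limma adjusted p = 0.0489). Hspa4 at 8.8 Gy in wild-type mice also passed without that array (limma adjusted p = 0.0212), because all groups share 1 estimate of the spread. The other Hspa4 probes disagreed: 1 gave -1.15, -1.04 and -1.18 in the 3 comparisons (limma adjusted p = 0.00688, 0.0192 and 0.00455), whereas the other gave -0.20, -0.26 and -0.78 and did not pass. With the mean over all detected Hspa4 probes the Parp1-/- difference was -0.77 and passed (limma adjusted p = 0.015), and with the compared groups alone the one at 8.8 Gy passed (0.0272).

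Hspa1b, the stress-inducible HSP70, is nearly identical to its neighbour Hspa1a, and the array carries a probe whose annotation lists the accessions of both. The probe is named Hspa1a and its sequence, shown because no part of it can separate the pair, is as follows.

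Hspa1a and Hspa1b probe: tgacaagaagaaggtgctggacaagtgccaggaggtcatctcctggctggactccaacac

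It lies at chr17:35107117-35107176 (mm9, minus strand) and was well above background on 8 of 24 arrays: 3 of 5 wild-type sham, 1 of 5 at 6 Gy, 2 of 4 at 8.8 Gy, 1 of 5 Parp1-/- sham and 1 of 5 Parp1-/- at 6 Gy. Its highest level was -0.65, on wild-type sham replicate 2. It did not reach the brightness needed for the test, so no fold change is given for the inducible HSP70 pair.

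The HSP90 genes fell in all 3 comparisons. Hsp90ab1, the constitutive cytosolic HSP90 (probe at chr17:45704788-45704847), read 5.81, 6.69, 5.87, 6.31 and 5.72 in wild-type sham mice, 4.93, 4.55, 4.16, 4.58 and 4.95 at 6 Gy, and 4.79, 4.76, 4.71 and 4.75 at 8.8 Gy. The 8.8 Gy arrays spanned less than 0.1 between the lowest and the highest. In Parp1-/- mice it read 5.60, 5.69, 6.03, 6.20 and 6.16 in the sham group and 4.58, 4.70, 4.58, 4.92 and 3.98 at 6 Gy. No sham and irradiated arrays overlapped. The differences were -1.44 ± 0.220, -1.32 ± 0.234 and -1.38 ± 0.220, or 2.72-fold, 2.50-fold and 2.61-fold lower (limma adjusted p = 0.000183, 0.000794 and 0.000159).

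Hsp90aa1, the HSP90 isoform that heat induces (probe at chr12:111929248-111929307), read 3.14, 4.36, 3.31, 3.90 and 3.20 in wild-type sham mice and 2.18, 2.33, 2.24, 2.23 and 2.0 at 6 Gy. At 8.8 Gy it read 2.77, 2.61, 2.47 and 2.07. The Parp1-/- arrays read 4.08, 3.81, 2.81, 4.2 and 4.10 without radiation and 2.42, 2.66, 2.58, 2.75 and 2.35 at 6 Gy. The groups did not overlap in any of the 3 comparisons, although Parp1-/- sham replicate 3 came close to the irradiated arrays. Differences were -1.39 ± 0.256, -1.10 ± 0.272 and -1.25 ± 0.256 (limma adjusted p = 0.000978, 0.00847 and 0.00146).

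Dnaja1, an HSP40 cochaperone of Hspa8 (probe at chr4:40679954-40680014), fell in the 3 comparisons as well. Wild-type sham arrays read 4.78, 5.86, 4.98, 5.46 and 4.65, those at 6 Gy 4.09, 3.95, 3.79, 4.51 and 4.09, and those at 8.8 Gy 3.74, 3.83, 4.22 and 3.64. Parp1-/- sham arrays read 5.25, 5.44, 4.02, 5.56 and 5.4, against 3.83, 3.61, 4.0, 3.98 and 4.0 at 6 Gy. The groups did not overlap, by a margin of under 0.1 in Parp1-/- mice, where sham replicate 3 was again the lowest. Differences were -1.06 ± 0.268, -1.29 ± 0.284 and -1.25 ± 0.268 (limma adjusted p = 0.00764, 0.00429 and 0.00199).

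Dnajb1, the heat-inducible HSP40 (probe at chr8:86135660-86135719), was the gene whose sham arrays varied most in wild-type mice. They read 3.33, 5.26, 3.55, 4.59 and 3.63, an SD of 0.821, and overlapped the 6 Gy arrays at 3.61, 3.49, 3.44, 3.71 and 3.08. The difference at 6 Gy was -0.61 with a 95% interval of -1.21 to -0.0051, and it did not pass over all genes (limma adjusted p = 0.123). It passed with median centring (-1.39, limma adjusted p = 0.00328), where the median of all genes was -0.74. With the mean of hepatocyte markers as a covariate it passed too (-0.71, limma adjusted p = 0.0356). At 8.8 Gy the arrays read 3.10, 2.84, 2.96 and 2.96, all below the sham arrays, and the difference was -1.11 ± 0.309 (limma adjusted p = 0.0177). That call was lost without wild-type sham replicate 2 (limma adjusted p = 0.0533), without wild-type 8.8 Gy replicate 2 (0.0531) and without the nearly equal arrays (0.0577). It was also lost with the compared groups alone (limma adjusted p = 0.0793). In Parp1-/- mice the sham arrays at 4.58, 4.83, 3.83, 4.79 and 4.56 stood above the 6 Gy arrays at 2.84, 3.28, 3.24, 3.69 and 3.34, with a difference of -1.24 ± 0.292 (limma adjusted p = 0.00377).

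By SD, the mitochondrial pair varied more between mice than the other chaperones at 6 Gy in wild-type mice and in Parp1-/- sham mice. In wild-type sham mice it did not (SD 0.42 for Hspd1 and 0.25 for Hspe1). Hspd1, the HSP60 chaperonin (probe at chr1:55134697-55134756), read 3.98, 3.89, 3.05, 3.28 and 3.20 in wild-type sham mice and 1.59, 1.08, 0.90, 1.78 and 3.27 at 6 Gy, where replicate 5 lay among the sham arrays. The difference was -1.76 ± 0.465, or 3.38-fold lower (limma adjusted p = 0.00984). At 8.8 Gy, with 1.04, 1.92, 2.77 and 2.65, the groups did not overlap, and the difference of -1.39 ± 0.493 did not pass (limma adjusted p = 0.057). In Parp1-/- mice the sham arrays read 4.07, 3.30, 1.52, 3.31 and 3.46 and the 6 Gy arrays 1.92, 1.24, 2.74, 2.26 and 1.36, a difference of -1.23 ± 0.465 (limma adjusted p = 0.0601). Without Parp1-/- sham replicate 3 that difference was -1.63 (limma adjusted p = 0.00968) and the one at 8.8 Gy passed too (0.0277). Both also passed without wild-type 6 Gy replicate 5 (limma adjusted p = 0.0348 in Parp1-/- mice and 0.0327 at 8.8 Gy). Leaving out Parp1-/- 6 Gy replicate 3 (0.0389) or wild-type 8.8 Gy replicate 3 (0.0451) had the same effect on the comparison that holds the array. Other omissions went the other way. Over all fits without 1 array the Hspd1 difference ran from -1.61 to -1.04 at 8.8 Gy, with limma adjusted p-values of up to 0.197. In Parp1-/- mice it ran from -1.63 to -0.99, with limma adjusted p-values of up to 0.144.

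Hspe1, the HSP10 lid of the same chamber (probe at chr1:55148026-55148085), lay near the threshold. Its level was 3.31 to 3.91 in wild-type sham mice, 2.17 to 3.55 at 6 Gy, 2.29 to 3.25 at 8.8 Gy, 2.37 to 4.84 in Parp1-/- sham mice and 2.51 to 3.36 in Parp1-/- mice at 6 Gy. Sham and irradiated arrays overlapped in the 6 Gy comparisons of both genotypes. The differences were -0.92 ± 0.340, -1.06 ± 0.361 and -0.95 ± 0.340 (limma adjusted p = 0.0481, 0.0481 and 0.0471). Of the 24 fits that left out 1 array each, 16, 17 and 17 lost the call in these comparisons, with adjusted p-values by limma of up to 0.133, 0.126 and 0.124. A probe that shares 57 bases with the one used gave -0.72, -0.86 and -1.02 (limma adjusted p = 0.0838, 0.0735 and 0.0198), and a probe at another position gave -1.15, -1.42 and -1.44 (0.107, 0.0836 and 0.0514). Of these 6 values 1 passed.

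**Figure D2:**
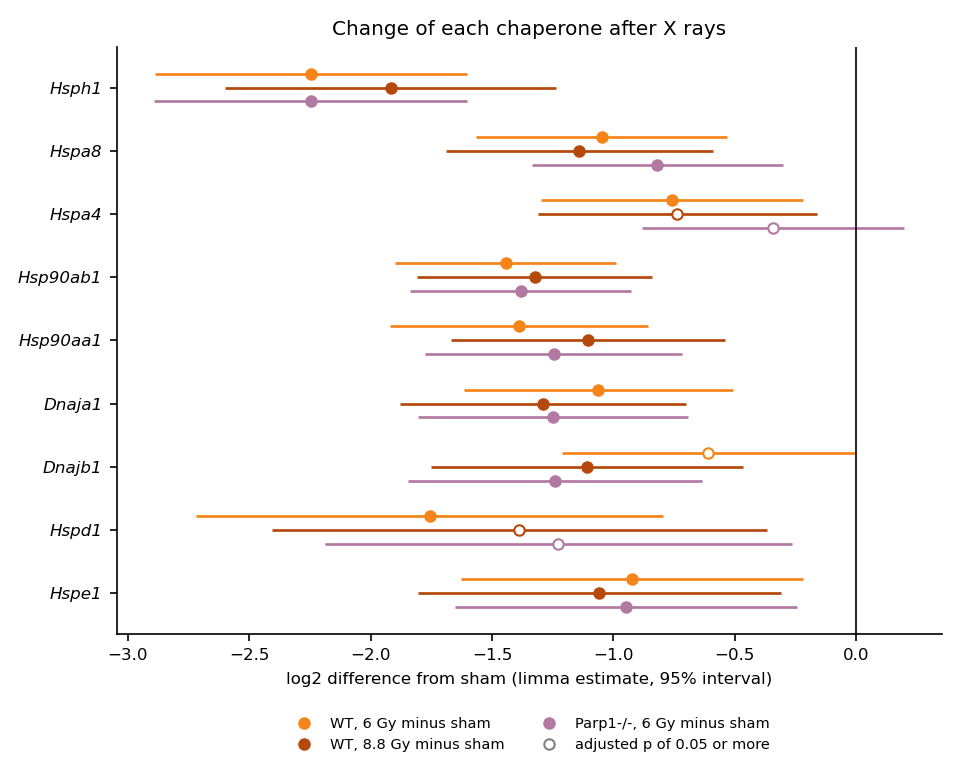
Log2 difference from the sham group of the same genotype (horizontal axis) for each chaperone (vertical axis), as limma estimates with 95% intervals. Filled points passed an adjusted p of 0.05 and open points did not. All 27 estimates lie below 0, from -2.25 for Hsph1 to -0.34 for Hspa4 in Parp1-/- mice, whose interval crosses 0.

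No difference between genotypes or doses passed for these genes. Between Parp1-/- and wild-type sham mice the 9 differences ran from -0.40 (Hspa4) to 0.45 (Dnajb1), and limma called 0 of 9 at an adjusted p under 0.05, where 0.682% of all genes were called. At an unadjusted p under 0.05 it had 0 of 9, where 2688 of all 13054 genes passed. These sham groups shared no slide or scan day. Genotype and scan day cannot be told apart there, except through Parp1-/- 6 Gy arrays, and the interaction below uses both groups. With slide or with scan day as a fixed term the median of the 9 moved from 0.02 to 0.64 or 0.50, with 0 of 9 called. At 6 Gy the Parp1-/- minus wild-type differences ran from -0.20 (Dnaja1) to 0.36 (Hsp90aa1), with 0 of 9 called, against 0.85% of all genes, and 0 of 9 at an unadjusted p under 0.05, against 3041 of all genes. The response of Parp1-/- mice minus that of wild-type mice at 6 Gy was tested as an interaction and ran from -0.63 (Dnajb1) to 0.53 (Hspd1), again with 0 of 9 called, where 6.08% of all genes were, and 0 of 9 at an unadjusted p under 0.05, where 3337 of all genes passed. For Hsph1 that interaction was near 0 with a 95% interval of -0.91 to 0.91, so a difference of response of up to 0.91 in either direction is inside the interval. For Dnajb1 the interval was -1.49 to 0.22 (limma adjusted p = 0.347).

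Wild-type mice at 8.8 Gy and at 6 Gy were also compared. The differences ran from -0.50 (Dnajb1, 95% interval -1.14 to 0.14) to 0.37 (Hspd1), and limma called 0 of 9 and 0.0% of the 13054 genes. For Hsp90ab1 the interval was -0.36 to 0.60. Between mice given the LD50/30 dose of their genotype, Parp1-/- at 6 Gy and wild-type at 8.8 Gy, the differences ran from -0.20 (Hsp90ab1) to 0.34 (Hspa8), with 0 of 9 and 0.0% of all genes called. That comparison holds the nearly equal arrays on opposite sides. At an unadjusted p under 0.05 limma had 0 of 9 in either of these contrasts, where 2355 and 269 of all genes passed.

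Levels of the 9 chaperones were correlated over the arrays. Over the 36 pairs of the 9 genes, Pearson's r across 24 arrays ran from 0.54 to 0.96 with a median of 0.77, and after subtracting each group's mean from 0.02 to 0.87 with a median of 0.54. These are descriptions over arrays that share slides and groups. In sham-irradiated mice, wild-type replicate 2 had the highest mean level of the 9, at 5.05, while the other 4 had 4.13 to 4.60. In Parp1-/- sham mice, replicate 3 had the lowest, at 3.48, and the other 4 had 4.57 to 4.75, so replicate 3 stood at the upper end of the irradiated arrays of its genotype (3.12 to 3.47). Replicate 3 was also the dimmest of the 24 arrays, with the lowest 75th percentile (log2 intensity 5.57). It had the smallest share of probes well above background as well (36.5%). Without it, 8, 9 and 9 of 9 chaperones passed in wild-type mice at 6 Gy, at 8.8 Gy and in Parp1-/- mice. Of the 12975 genes compared, those whose levels followed the mean of the 9 most closely over 24 arrays were Sfpq, encoding an RNA-binding protein of paraspeckles (r = 0.94), Tardbp, encoding the RNA-binding protein TDP-43 (0.93), Cacybp (0.93), Chordc1, an HSP90 cochaperone (0.93), and Tdrp (0.92). These values include the differences between groups. After each group's mean was subtracted r was 0.78, 0.79, 0.80, 0.57 and 0.64 in the same order.

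Slides and scan days were set beside the falls. Slide 9 held Parp1-/- 6 Gy replicate 5 and Parp1-/- sham replicates 1 and 2, and there the irradiated array was lower for 9 of 9 chaperones, by a median of -1.60 (-2.32 for Hspd1 to -0.55 for Hspa4). Slide 6 held Parp1-/- 6 Gy replicate 4 and wild-type sham replicate 1, of another genotype, and the irradiated array was lower for 8 of 9, with a median of -0.81 and Dnajb1 at 0.36. With all wild-type sham arrays, scanned the same day, it was lower for 9 of 9 (median -0.92). No slide or day held both sham and irradiated wild-type arrays, so within wild-type mice scan day and irradiation cannot be told apart except through these Parp1-/- arrays. With slide as a fixed term, limma called 0 of 9 in each comparison (medians -0.86, -0.69 and -1.60) and 0, 0 and 53 of all genes. With scan day as a fixed term it also called 0 of 9 (medians -0.98, -1.03 and -1.60) and 15, 23 and 56 of all genes. In Parp1-/- mice the estimates with either fixed term are the slide 9 differences given above, of 1 irradiated array against sham replicates 1 and 2. They are not a separate reading of those arrays. With slide as a random term (correlation 0.199) limma called 6, 6 and 8 of 9.

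Lymphocyte markers also had lower levels in the irradiated groups. The mean level of 12 T cell markers was 3.32 ± 0.31 (SD) in wild-type sham mice, 2.13 ± 0.32 at 6 Gy and 1.3 ± 0.41 at 8.8 Gy, and 3.25 ± 0.48 and 1.45 ± 0.45 in Parp1-/- sham and 6 Gy mice. The mean level of 12 B cell markers was 0.87 ± 0.17, -1.02 ± 0.28, -1.61 ± 0.24, 0.51 ± 0.64 and -1.79 ± 0.35 in the same order, and no array of an irradiated group had Ebf1 (6 Gy), Fcer2a (8.8 Gy) or either of them (Parp1-/-) well above background. In bulk blood, fewer cells of a type and less RNA per cell cannot be told apart. With the mean of the T and B cell markers as a covariate, an analysis added after the data had been seen, limma called 0 of 9 chaperones in each comparison (medians -0.55, -0.42 and -0.26, where all genes had medians of 0.51, 0.63 and 0.51). Of all 13054 genes, 2412, 1567 and 2306 passed in that fit. The covariate was at least 1.24 on every sham array and at most 0.72 on every irradiated array. In that fit it can be told apart from irradiation only through the spread within groups. As a description over 24 arrays, which includes the differences between groups, the mean of the 9 chaperones had r = 0.80 with the T cell and 0.86 with the B cell marker mean. After each group's mean was subtracted r was 0.14 and 0.34, and the largest r in size among the 10 marker lists was then -0.54, with neutrophils. The T cell mean ranged from 0.82 to 1.81 at 8.8 Gy and from 1.60 to 2.47 at 6 Gy, a difference that was not tested, while the mean of the 9 chaperones was 3.20 ± 0.180 and 3.18 ± 0.204 (SD).

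**Figure D3:**
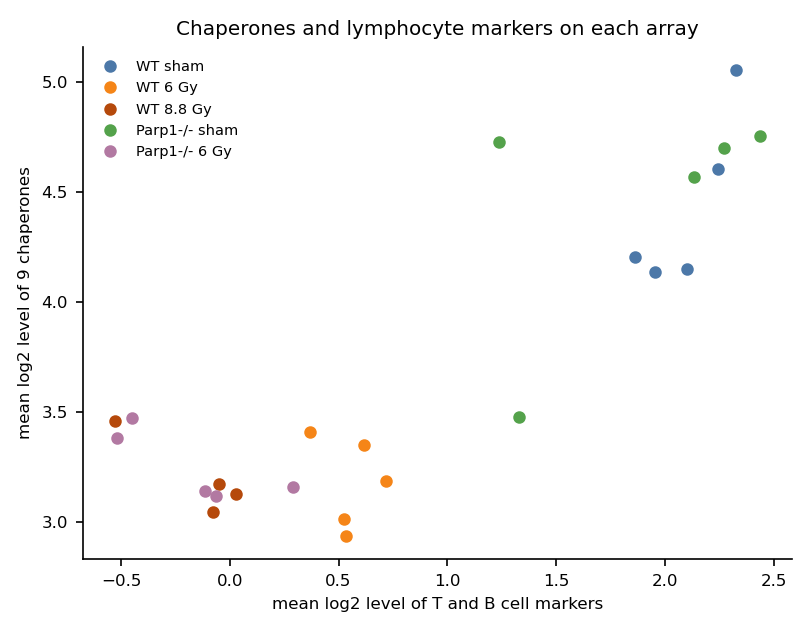
Mean log2 level of the 9 chaperones (vertical axis) against the mean log2 level of the T and B cell markers (horizontal axis), 1 point per array, coloured by group. Sham arrays lie to the right of all irradiated arrays and, with the exception of Parp1-/- sham replicate 3 at 3.48, which is level with the highest irradiated array at 3.47, clearly above them. Among irradiated arrays the chaperone mean keeps between 2.94 and 3.47 while the marker mean runs from -0.53 to 0.72.

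Markers of other cells differed less evenly between the groups. Erythroid markers (13) averaged 1.84 in wild-type sham mice, 0.60 at 6 Gy and 1.08 at 8.8 Gy, and 2.62 and 1.2 in Parp1-/- sham and 6 Gy mice, and no irradiated array had Epb4.2 well above background. Kupffer cell markers (8) averaged -0.16, 1.49, 1.08, -1.03 and 1.39 in the same order, and platelet markers (10) 4.09, 4.57, 5.48, 4.50 and 5.75. Group means ran from 2.48 to 3.07 for neutrophils (11 markers), 1.45 to 1.94 for monocytes (6 of 7 on the array), -0.03 to 0.49 for NK cells (8) and -2.87 to -0.81 for heart muscle (10). The part of these lists in the chaperone result was not tested. Hepatocyte markers (18) varied within every group, for example from -2.91 to 6.38 among wild-type sham arrays, and with their mean as a covariate limma called 9, 8 and 8 of 9 chaperones lower.

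The wider chaperone network was read from a list of 107 other genes in 8 classes, of which 88 could be tested. In wild-type mice at 6 Gy 22 of 88 were lower and 3 higher, at 8.8 Gy 17 and 3, and in Parp1-/- mice 15 and 3. Over all genes tested the shares were 10.9% lower and 15.5% higher, 9.02% and 7.03%, and 10.5% and 12.3%, against which the class counts below are to be read. Their median differences were -0.37, -0.42 and -0.16, compared with 0.04, 0.03 and -0.07 for all genes. The subunits of TRiC, the cytosolic chaperonin that folds actin and tubulin, and prefoldin, which feeds it, fell in 7 of 13, 6 of 13 and 5 of 13 cases. Cct7 differed by -1.26 ± 0.270, -1.28 ± 0.286 and -1.86 ± 0.270 (limma adjusted p = 0.00291, 0.00475 and 6.39e-05). Cct3 gave -1.3 and -1.18 in wild-type mice, and Cct8 -1.26 in Parp1-/- mice (limma adjusted p = 0.0016, 0.00544 and 0.00114).

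Cochaperones of HSP90 and HSP70 were lower in 8, 9 and 4 of 20. Chordc1 had -1.85 ± 0.217, -1.63 ± 0.230 and -1.73 ± 0.217 (limma adjusted p = 1.03e-05, 8.94e-05 and 1.32e-05). Stip1, which bridges HSP70 and HSP90, had -1.06 at 8.8 Gy and -1.47 in Parp1-/- mice (limma adjusted p = 0.00881 and 0.00028), and St13 had -1.07 at 6 Gy in wild-type mice (limma adjusted p = 0.00523). The single cochaperone that rose was Bag3, by 0.83 at 8.8 Gy and 1.16 in Parp1-/- mice (limma adjusted p = 0.0277 and 0.00137), with -0.08 at 6 Gy in wild-type mice (0.832). It was picked out after its values were seen.

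Of the other HSP40 genes, 4 of 18, 1 of 18 and 4 of 18 were lower. Dnaja4 differed by -2.41 and -1.99 at 6 Gy in wild-type and Parp1-/- mice (limma adjusted p = 0.000734 and 0.00208), and Dnajb6 by -2.13 and -2.18 (limma adjusted p = 0.00131 and 0.000675). Endoplasmic reticulum chaperones, which serve secreted proteins, had 0 of 16 lower in each comparison. At an adjusted p under 0.05 limma called 1 of them higher at 8.8 Gy and in Parp1-/- mice, Dnajb9 (0.97 and 1.46, limma adjusted p = 0.00939 and 0.000139). The small heat shock proteins Cryab and Cryaa rose by 2.13 and 1.58 at 6 Gy in wild-type mice (limma adjusted p = 0.0035 and 0.00585), while 0 of 5 of that class passed at 8.8 Gy or in Parp1-/- mice. The interaction, the Parp1-/- response minus the wild-type response at 6 Gy, was -2.65 for Cryab and -2.35 for Cryaa (limma adjusted p = 0.0344 and 0.027). With no filter on dim probes the median of all genes was 0.63 at 6 Gy in wild-type mice and -0.85 for the interaction. Those are the directions of Cryab and Cryaa, whose probe brightness is not given here. The mean of the 10 heart muscle markers was -2.87 ± 0.80 (SD) in wild-type sham mice, -1.06 ± 1.57 at 6 Gy and -0.81 ± 1.43 at 8.8 Gy. In Parp1-/- mice it was -2.81 ± 0.47 in the sham group and -1.59 ± 2.89 at 6 Gy, and the blood came from cardiac puncture. The parts of the all-gene shift and of heart muscle markers in the Cryab and Cryaa values were not tested. Hsf1, a heat shock transcription factor, differed by -0.67, -0.76 and -0.56 (limma adjusted p = 0.0388, 0.0402 and 0.0855). Of the 4 genes tested in its class, 1, 1 and 0 were lower and 1 was higher in each comparison. The class medians were -0.05, -0.14 and 0.06. Dnajb9, Cryab, Cryaa and Hsf1 were named after their values were seen.

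**Figure D4:**
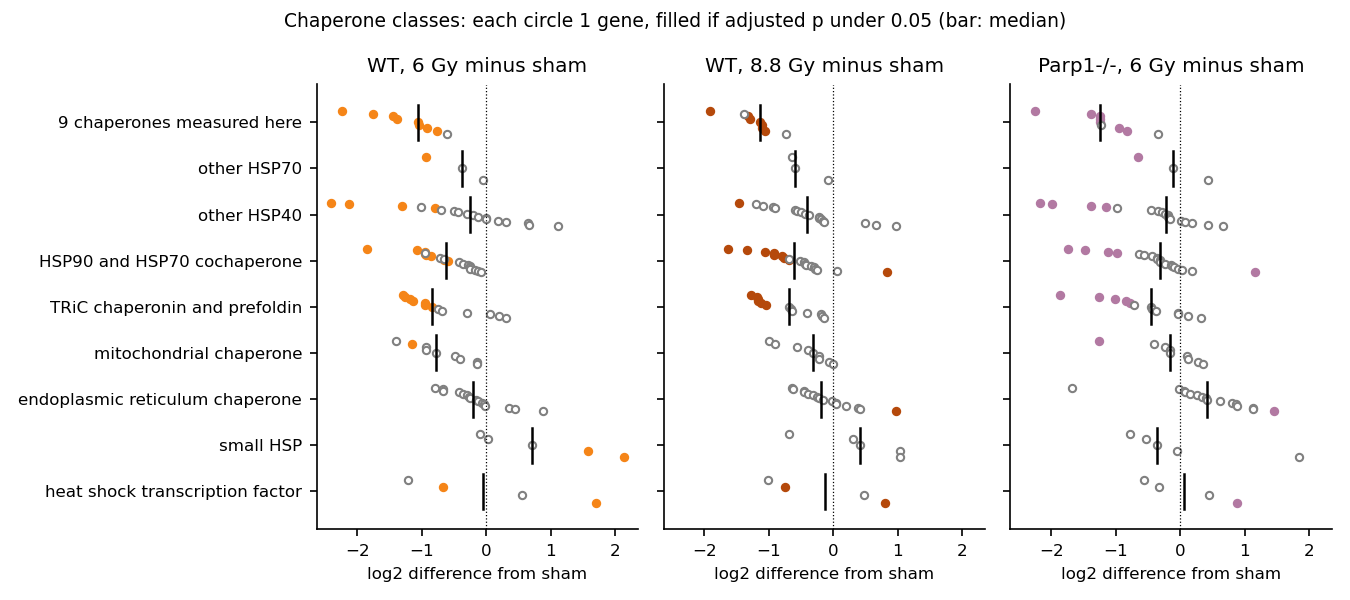
Log2 difference from sham (horizontal axis) in the 3 comparisons for the 9 chaperones and for 8 other classes (vertical axis), 1 circle per gene and a bar at the class median. Filled circles passed a limma adjusted p of 0.05. The medians of the 9 lie at -1.06, -1.14 and -1.24, and the endoplasmic reticulum class at -0.21, -0.19 and 0.41.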

How the data were processed

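Each of 24 arrays was scanned in 1 colour (Cy3) and read with Agilent Feature Extraction 11.5.1, per the submitters' processing notes. The deposited scanner files give each spot's processed intensity, already background-corrected, per the file headers. The authors' deposited log2 table is the same values shifted by a constant per array, within 0.01, over the probes compared, and served as an alternative. No normalization between arrays had been applied to the scanner files.

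Control spots and outlier spots (109 to 358 per array) were left out. The log2 intensity minus the array's 75th percentile was averaged per probe. Probes took their symbol through RefSeq accessions (27508) or the file (5747), and 6174 had none. The brightest probe stood for a gene, and testing required that probe to exceed background clearly, by the scanner's own flag, on 4 or more arrays of any group. Probe positions are those of build mm9 as the files give them, and promoters those of GRCm38.p6. Positions of the probes used were not annotated as exon or UTR here. Group means over 24 arrays were fitted with limma 3.58.1 in R 4.3.3 (two-sided, Benjamini-Hochberg over 13054 genes, called under 0.05), after the scripts were tested on simulated data. Called members are given without a test of the set. The number of arrays limits the precision, and ± after a difference is limma's SE.

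The members, marker lists and chaperone classes were chosen with earlier results of these data known. All 10 members are named. Of other genes, the text names Parp1, up to 2 genes of lowest adjusted p per chaperone class where over 2 passed, and the 5 genes closest to the members' mean, plus those said to be picked later. The alternatives were median centring, normexp background with quantile normalization (offset 50), 2 other probe filters, the mean over probes, slide and scan day as terms, the replicate number as a block, the compared groups alone, the authors' table, a hepatocyte covariate and each array left out. Leaving out the nearly equal arrays and the T and B cell covariate were added after the data had been seen. Marker lists covered T, B and NK cells, neutrophils, monocytes, erythroid cells, platelets, hepatocytes, heart muscle and Kupffer cells.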

Additional observations from a re-analysis of the deposited data

Results flagged for a closer look

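In each group of 4 or 5 arrays the highest or lowest value of a chaperone was set against the others by Dixon's criterion, which by chance picks out about 1 group in 20. Of 45 groups examined, 5 held such an array. Parp1-/- sham replicate 3 was the low array in 4 of them: Hsp90aa1 at 2.81, Dnaja1 at 4.02, Dnajb1 at 3.83 and Hspa4 at 1.33. The other was Hsph1 on wild-type 8.8 Gy replicate 4, at 0.78.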

How the results depend on the processing

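Counts of lower chaperones out of 9 are given in the order wild-type 6 Gy, wild-type 8.8 Gy and Parp1-/- 6 Gy against sham, where 8, 7 and 7 passed. Leaving out 1 array gave 6 to 8, 5 to 9 and 5 to 9, and leaving out the nearly equal arrays 7, 5 and 5. Counts fell to 0, 0 and 0 with slide as a fixed block, with scan day as a fixed block and with the mean of T and B cell markers as a covariate. That marker mean did not overlap between sham and irradiated arrays. All other settings kept the counts within 1.5 times: 9, 7 and 5 with median centring, 6, 6 and 7 with normexp and quantile normalization, and 8, 6 and 5 with the authors' table. Median centring moved the median of all genes from 0.04, 0.03 and -0.07 to -0.74, -0.28 and -0.03 and that of the chaperones to -1.84, -1.46 and -1.20. In Parp1-/- against wild-type mice at 6 Gy it called 3 of 9 chaperones higher, with the median of all genes at 0.59. In the other contrasts between genotypes and doses 0 of 9 passed under every setting run.

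Signs turned, with no value past the threshold, for Hspa4 and Dnajb1 in wild-type mice at 6 Gy with slide as a fixed block (0.10 and 0.68), at 8.8 Gy with slide fixed (Hspa4 0.22, Dnajb1 0.11), and for Hspa4 with scan day fixed (0.094 at 6 Gy, 0.12 at 8.8 Gy). With the T and B cell covariate they turned for Dnajb1 at 6 Gy (0.25), for Hsp90aa1, Dnajb1 and Hspa4 at 8.8 Gy (0.12, 0.14 and 0.24) and for Hspa4 in Parp1-/- mice (0.55). The cause was not tested. Of 1026 values of single chaperones under the alternatives, 847 kept direction and side of the threshold and 11 changed sign. With direction kept, 149 no longer passed and 19 newly passed. Some of the 11 had passed without the added term, and are not among the 149. Many of the 1026 come from leaving out an array of neither compared group, which keeps the estimate itself, so the sign could not change there.

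Replicate numbers did not pair the arrays: of the same-numbered pairs between 2 groups, at most 3 of 5 had deviations that correlated above 0.1. With the replicate number as a block 7, 6 and 6 chaperones passed, and Hspe1 did not pass in any of the 3 comparisons (limma adjusted p = 0.0686, 0.0952 and 0.0704).

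With 4 or 5 mice per group, single chaperones have wide intervals: between the sham groups of the genotypes that of Hspa8 reached 0.54 and that of Hspd1 -1.31 on the log2 scale. All irradiated wild-type arrays come from another scan day than their controls. Sham arrays of the genotypes come from different scan days too.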
